A study of Rattus norvegicus with 6 samples.

Results

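The genes of the smooth muscle contractile apparatus and their transcription cofactor myocardin were examined in neonatal rat ventricular myocytes that had been made to express Tbx18. The members were chosen by symbol. They were Acta2, Actg2, Tagln, Cnn1, Smtn, Lmod1, Myh11, Mylk and Myocd, 9 of the 17089 genes of the deposited table, and all 9 were matched and were abundant enough to be tested. Of them, 5 rose with Tbx18 (Mylk, Lmod1, Myh11, Smtn and Tagln), 2 fell (Cnn1 and Myocd), and the smooth muscle actin genes, Acta2 and Actg2, were not called in either direction. Such calls were common, with 22.5% of all 11230 genes tested called higher and 23.5% lower. Among the 9 genes the largest rise was that of Mylk, 2.58-fold, and the largest fall that of Myocd, 2.36-fold. So the cofactor and most of the contractile genes went in opposite directions, and calponin went with the cofactor. In bulk RNA, fewer cells of a type and less RNA per cell cannot be told apart.

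The cells were primary ventricular myocytes of Sprague Dawley rats at postnatal day 1-3, cultured on fibronectin with serum. No label mentions a step that removes other heart cells. On the day of isolation 3 cultures received an adenovirus with GFP alone (Ad-GFP, called GFP below) and 3 an adenovirus with Tbx18, an internal ribosome entry site and GFP (Ad-Tbx18-IRES-GFP, called Tbx18 below), so both groups carried an adenovirus and GFP. RNA was taken on day 4 after gene transfer, and the study asked how such Tbx18-induced pacemaker cells differ from ventricular myocytes. Whether the 3 replicates of a group came from different isolations is not in the labels, and the spread behind every p-value is that between libraries, possibly technical.

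Smooth muscle contracts when calcium signals activate myosin light chain kinase, which phosphorylates the light chain of smooth muscle myosin and lets it pull on actin filaments. The genes of this apparatus are switched on by serum response factor, SRF, which binds a short DNA element called the CArG box and recruits myocardin or its relatives. Myocardin is also made in heart muscle, where it serves the cardiac programme, and several smooth muscle genes, Acta2 and Tagln among them, are active in the immature heart muscle cell and in activated fibroblasts too. Tbx18 is a T-box factor of the sinus node region and of the epicardium, the outer cell layer of the heart from which smooth muscle cells, pericytes and fibroblasts arise.

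The libraries held 17074483 to 19800300 gene-assigned reads. The Tbx18 gene itself was at 268 to 312 normalized counts in GFP and 5937 to 6236 in Tbx18, in accord with every label. A normalized count is a gene's read count divided by 1 size factor for its library. Genes were called at a limma adjusted p under 0.05 (Benjamini-Hochberg over 11230 genes). By that rule 46.0% of all genes tested were called, 22.5% higher and 23.5% lower, 2525 and 2639 genes, so the 5 rises and 2 falls stand in a transcriptome where such calls were common. For 7 of the 9 smooth muscle genes (5 higher, 2 lower) no library of one group reached into the range of the other, as for 57.2% of all genes tested (28.6% higher and 28.6% lower). The median log2 fold change of the 9 genes was 0.50, against 0.01 over all genes tested. The deposited scaling matters: with libraries scaled to equal totals (4770 genes higher, 1351 lower) the median of all genes was 0.27 and that of the 9 genes 0.77, and with upper-quartile scaling (3255 higher, 2058 lower) they were 0.10 and 0.60, so the distance between them was 0.50 under these scalings. Both scalings divide each library by a single factor, which shifts all genes nearly alike, so that distance was bound to stay the same. Quantile normalization is not a single factor, and after it the medians were -0.01 for all genes and 0.85 for the 9 genes.

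**Figure D1:**
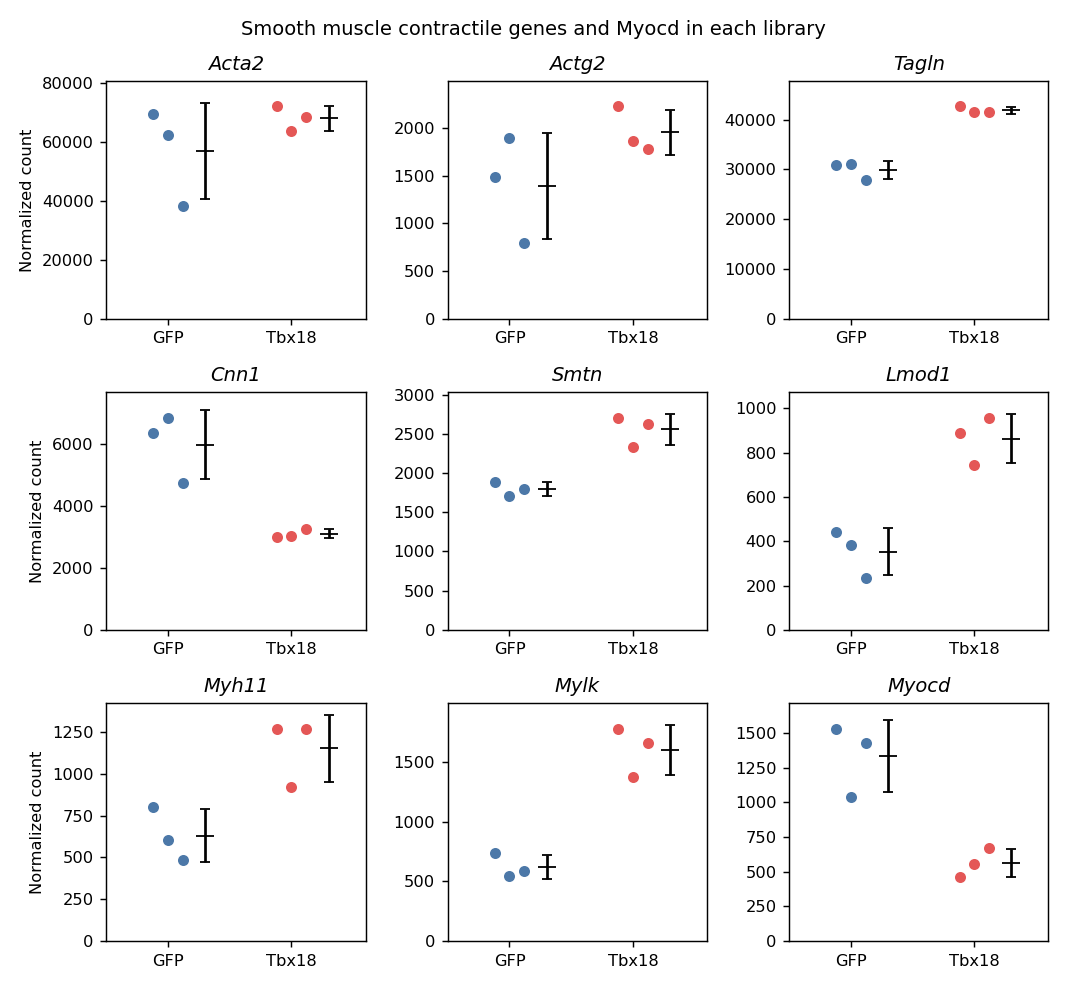
Normalized counts (y axes, linear and from 0) of the 9 genes in each of the 3 GFP (blue) and 3 Tbx18 (red) libraries, with the mean and SD (n = 3) in black at the right of each group. The groups overlap for Acta2 and Actg2 and are apart for the other 7 genes, with Cnn1 and Myocd lower and the rest higher in Tbx18.

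The actin genes came first. Acta2, smooth muscle alpha-actin, was at 69553, 62437 and 38392 normalized counts in GFP and at 72052, 63713 and 68412 in Tbx18. The Tbx18 libraries lay close together, while GFP replicate 3 stood well below the other GFP libraries, and the groups overlapped. The means were 56794 ± 16329 and 68059 ± 4181 (SD, n = 3 each), a log2 fold change of 0.30 (SE 0.20, 95% interval -0.14 to 0.75, limma adjusted p = 0.240). Without GFP replicate 3 the log2 fold change of Acta2 was 0.04. The gene was called higher without GFP replicate 1 (0.47, adjusted p = 0.0461), with equal totals (0.57, adjusted p = 0.0374) and after quantile normalization (0.85, adjusted p = 0.00345), and its alternatives spanned adjusted p-values of 0.00345 to 0.805. Actg2, the gamma-actin of gut and other visceral smooth muscle, stood at 1487, 1896 and 789 counts in GFP and at 2224, 1866 and 1779 in Tbx18. Again GFP replicate 3 was lowest and the groups overlapped. Its log2 fold change was 0.58 (SE 0.26, 95% interval -0.01 to 1.16, limma adjusted p = 0.0977). Without GFP replicate 3 the log2 fold change of Actg2 was 0.21. It was called without GFP replicate 2 (0.85, adjusted p = 0.0224), with equal totals (0.84, adjusted p = 0.0226) and after quantile normalization (0.69, adjusted p = 0.0494). It was also called with the replicate number as a block in the fit (0.58, limma adjusted p = 0.0234). The alternatives of Actg2 spanned adjusted p-values of 0.0224 to 0.281. The muscle actins are nearly identical in their coding sequence, so reads may have been split among them by the counting.

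The stretches before the start site of 4 genes are shown because they let the smooth muscle actin gene be set beside actin genes that moved clearly and beside calponin, which fell. They are RefSeq sequences of build GRCr8, which need not be the build of the counting, written 5′ to 3′ along the gene, with CArG boxes in capitals. Acta2 is the part from 160 to 30 bases before the start (chr1:241172533-241172663, minus strand), Acta1 and Actg1 the parts from 110 to 60 (chr19:68784254-68784304 and chr10:106121011-106121061, both minus strand), and Cnn1 the last 150 bases before the start (chr8:28908287-28908436, plus strand).
Acta2: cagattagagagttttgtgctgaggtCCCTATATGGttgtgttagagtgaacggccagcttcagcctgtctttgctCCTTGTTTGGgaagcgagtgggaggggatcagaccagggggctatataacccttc
Acta1: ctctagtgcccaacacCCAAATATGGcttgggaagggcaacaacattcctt
Actg1: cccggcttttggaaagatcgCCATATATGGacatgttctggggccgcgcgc
Cnn1: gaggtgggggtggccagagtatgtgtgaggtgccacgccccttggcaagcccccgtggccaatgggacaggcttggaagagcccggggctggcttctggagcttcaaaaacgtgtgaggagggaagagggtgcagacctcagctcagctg

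Both boxes of Acta2, which begin 134 and 84 bases before the start, have 1 inner base that is not A or T, whereas the boxes shown for Acta1 and Actg1 are exact. Windows from 250 bases before to 50 after the start were at hand for 5 of the 9 genes (Acta2, Actg2, Cnn1, Smtn and Mylk). None of these 5 held an exact CArG box, which 1.64% of all 33469 windows did, and 1, Acta2, held a box with 1 inner base off, which 8.10% did. Boxes further upstream or further into the genes were not searched for, so a window without a box does not mean a gene without one. Of the 16 related actin, calponin, transgelin, myosin, leiomodin, kinase and smoothelin-like genes with a window, 4 held an exact box: Acta1, Actc1, Actg1 and Cnn2. The CArG box is its own reverse complement in form, so the search covers both strands. The heart actin gene Actc1 also holds the same 10 letters, CCCTATATGG, as the first box of Acta2, 126 bases before its start. The T-box motif AGGTGTGA, searched on both strands, was in none of the 5 windows and in 1.1% of all windows. Acta1 and Actc1 fell in Tbx18 while Actg1 rose, so genes with an exact box in this window went both ways. A match of letters is a description and not a bound site.

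Among the actin-binding proteins 3 rose and 1 fell. Tagln, transgelin or SM22-alpha, which decorates actin filaments and is one of the earliest markers of smooth muscle, was at 30949.7, 30995 and 27886 counts in GFP and 42641, 41508 and 41474 in Tbx18. The groups were far apart and each was tight. Its rise was 1.40-fold (log2 fold change 0.49, SE 0.10, limma adjusted p = 0.00263). Smtn, smoothelin, a filament protein known from contractile smooth muscle cells, was at 1889, 1713 and 1797 counts in GFP and 2707, 2335 and 2629.7 in Tbx18, with no overlap. It rose 1.42-fold (log2 fold change 0.50, SE 0.09, limma adjusted p = 0.00120). Lmod1, leiomodin 1, which seeds new actin filaments in smooth muscle, was at 441, 382 and 235 counts in GFP and 889, 744 and 959 in Tbx18. Every Tbx18 library exceeded every GFP library, although GFP replicate 3 was again the lowest. The rise of Lmod1 was 2.45-fold (log2 fold change 1.33, SE 0.21, limma adjusted p = 0.000745).

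Calponin went the other way. Cnn1, smooth muscle calponin, an actin-binding protein that restrains the myosin ATPase, was at 6343, 6845 and 4741 counts in GFP and at 3004, 3037 and 3263 in Tbx18. All Tbx18 libraries lay below all GFP libraries and within a narrow band. The mean fell 1.93-fold, from 5976 ± 1099 to 3101 ± 141 (SD, n = 3 each; log2 fold change -0.93 with SE 0.13, limma adjusted p = 0.000352), and 5.07% of the genes tested had a lower log2 fold change. Set against the other contractile genes within each library, where the scaling of the library cancels, Cnn1 was lower relative to every one of them. That direction was fixed beforehand, since Cnn1 fell and the log2 fold changes of all the others were above 0. The log2 ratio of Cnn1 to Tagln was -2.29, -2.18 and -2.56 in GFP and -3.83, -3.77 and -3.67 in Tbx18, a change of -1.42. That to Acta2 changed by -1.23, and that to Mylk by -2.30, the ends of the range over the 7 contractile genes. The groups did not overlap for any of the 7 ratios.

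The motor and its kinase rose. Myh11, the smooth muscle myosin heavy chain and a specific marker of the differentiated smooth muscle cell, was at 799, 605 and 484 counts in GFP and 1266, 922 and 1269 in Tbx18. The lowest Tbx18 library exceeded the highest GFP library. Myh11 rose 1.83-fold (log2 fold change 0.89, SE 0.18, limma adjusted p = 0.00356). Mylk, the kinase that phosphorylates the myosin light chain, was at 737, 543 and 585 counts in GFP and 1779, 1373 and 1659.8 in Tbx18. All Tbx18 values were well clear of the GFP values. The rise was 2.58-fold (log2 fold change 1.37 with SE 0.14, limma adjusted p = 6.10e-05), and 95.1% of the genes tested had a lower log2 fold change. Mylk also encodes a longer non-muscle kinase and a short protein without kinase activity, and the values per gene do not separate these products.

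Myocd, the SRF cofactor, was at 1532, 1039.8 and 1429 counts in GFP and at 465, 556 and 671 in Tbx18. Every Tbx18 library lay below every GFP library. The mean fell 2.36-fold, from 1334 ± 259.5 to 564 ± 103 (SD, n = 3 each; log2 fold change -1.24 with SE 0.17, limma adjusted p = 0.000333), and 2.34% of the genes tested had a lower log2 fold change. Relative to Mylk the log2 ratio of Myocd was 1.05, 0.94 and 1.29 in GFP and -1.93, -1.30 and -1.31 in Tbx18, a change of -2.61 or 6.09-fold. Relative to Smtn it changed by -1.74 and relative to Tagln by -1.72, with no overlap of the groups. Relative to Cnn1 the ratio was -2.05, -2.72 and -1.73 in GFP and -2.69, -2.45 and -2.28 in Tbx18, so these groups overlapped. Heart and smooth muscle forms of Myocd differ by splicing and are summed here.

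In all, 24 within-library ratios were computed, 15 of them between the 9 genes, chosen after the fold changes were seen. The change of a ratio is the difference between the log2 fold changes of its genes. It therefore restates those changes and is not separate evidence. In a design of 3 against 3 the two-sided exact permutation test cannot go below p = 0.1. The ratios whose groups did not overlap reached that value, with a Benjamini-Hochberg adjusted p = 0.12 over the 24, so none passes a threshold of 0.05. For Myocd to Cnn1 the exact permutation p was 0.5. The RefSeq table of GRCr8 lists uncharacterised loci that overlap Lmod1, Mylk and Myocd, so reads from these loci may be among their counts, as the library kit keeps strand but the strand setting of the counting is not given in the sources used here.

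**Figure D2:**
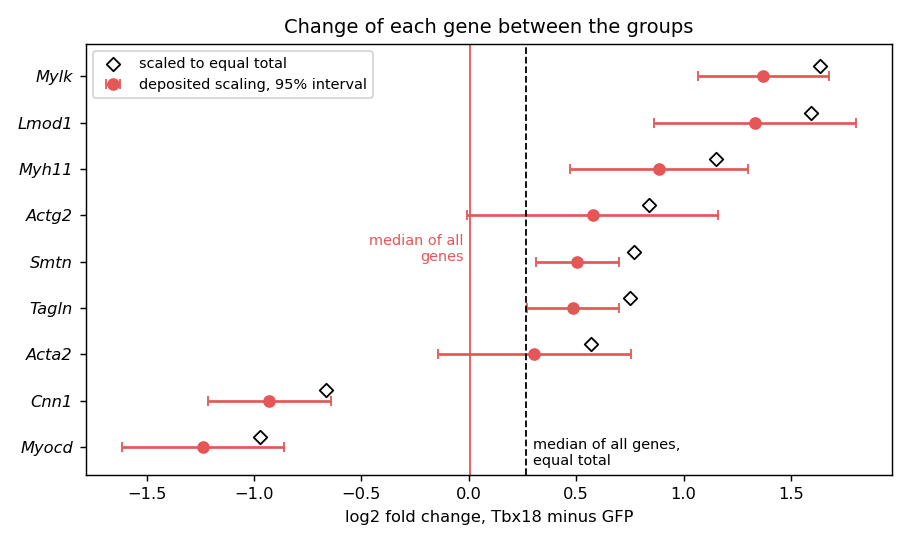
Log2 fold change of Tbx18 minus GFP (x axis) for each of the 9 genes (y axis), as red points with 95% intervals from limma under the deposited scaling and as open diamonds with libraries scaled to equal totals, beside the median of all genes under each scaling (0.01, solid red; 0.27, dashed black). Mylk and Lmod1 lie highest at 1.37 and 1.33, and Cnn1 and Myocd lie below 0 under both scalings.

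By size of change the 9 genes fell into an order of Mylk, Lmod1, Myh11, Actg2, Smtn, Tagln, Acta2, Cnn1 and Myocd. The 95% intervals of neighbours in this order overlapped except between Acta2, which reached down to -0.14, and Cnn1, which reached up to -0.64. Within GFP the genes except Smtn varied more on the log2 scale. So did genes in general, with a median SD of log2 values of 0.17 in GFP and 0.10 in Tbx18. GFP replicate 3 had the lowest GFP value for 6 of the 9 (Acta2, Actg2, Tagln, Myh11, Cnn1 and Lmod1) and for 29.9% of all genes tested, and the median deviation of the 9 genes from their GFP means was -0.32 there on the log2 scale. Within Tbx18 the median deviations lay between -0.09 and 0.08.

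Most of the 9 genes have a striated or non-muscle paralog, and the pairs tell whether the smooth muscle form moved with it or apart. Of 12 paralogs tested, 7 rose and 5 fell, with a median log2 fold change of 0.35, where 46.0% of all genes were called. Acta1, skeletal alpha-actin, and Actc1, cardiac alpha-actin, fell 3.44-fold and 2.96-fold, Lmod2, the leiomodin of heart, fell 2.38-fold, and Mylk3, the cardiac light chain kinase, fell 1.66-fold. The cytoplasmic actin genes Actb and Actg1 rose 1.71-fold and 1.55-fold. Non-muscle members of the other families went both ways. Those that rose were Cnn3 1.33-fold, Tagln2 1.26-fold, Myh9 1.59-fold and Myh10 1.28-fold, and Smtnl2, a smoothelin-like gene, rose 1.49-fold. Myh14, a non-muscle myosin heavy chain like Myh9 and Myh10, was called lower (log2 fold change -0.30, limma adjusted p = 0.0240). That call was lost with equal totals, upper-quartile and quantile scaling, with no intensity trend, and without Tbx18 replicate 1 or 2 (adjusted p up to 0.777). The call on Myh10 (log2 fold change 0.37, limma adjusted p = 0.0272) was lost on leaving out GFP replicate 2 or 3, on leaving out Tbx18 replicate 1 or 3, and with no intensity trend (adjusted p up to 0.105).

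Within each library, the smooth muscle forms were set against their heart and skeletal paralogs, and each ratio was higher in every Tbx18 library than in every GFP library. The log2 ratio of Acta2 to Actc1 was -2.88, -3.11 and -3.68 in GFP and -1.25, -1.51 and -1.31 in Tbx18, a difference of 1.87 or 3.65-fold. To Acta1 the difference was 2.06. Both differences lay mostly in the paralogs, as Actc1 and Acta1 had log2 fold changes of -1.57 and -1.76. That of Acta2 was 0.30 and not called. For Lmod1 to Lmod2 the ratio was 2.21, 1.68 and 0.28 in GFP and 3.98, 3.38 and 4.39 in Tbx18, a difference of 2.53, with GFP libraries that differed widely. Mylk to Mylk3 differed by 2.09, lying between -2.88 and -2.23 in GFP and between -0.76 and -0.42 in Tbx18. These ratios are not per length, so only their change can be read. Each of these 4 pairs had groups that did not overlap (exact permutation p = 0.1, adjusted p = 0.12).

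Against the non-muscle paralogs the ratios had no common direction. Acta2 to Actb was 0.84, 0.69 and 0.10 in GFP and 0.21, -0.02 and 0.04 in Tbx18, so the groups overlapped (change -0.47, exact permutation p = 0.2). Tagln to Tagln2 differed by 0.15 and Myh11 to Myh9 by 0.18, with overlapping groups (exact permutation p = 0.2 and 0.7). Myh11 to Myh10 differed by 0.52 without overlap. Cnn1 to Cnn3 was 0.41, 0.41 and 0.16 in GFP and -1.06, -1.11 and -0.87 in Tbx18, a difference of -1.34. Of 12 pairs planned, 9 could be formed from the table, and those with Cnn2 and with both myocardin-related factors were not analysed here.

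**Figure D3:**
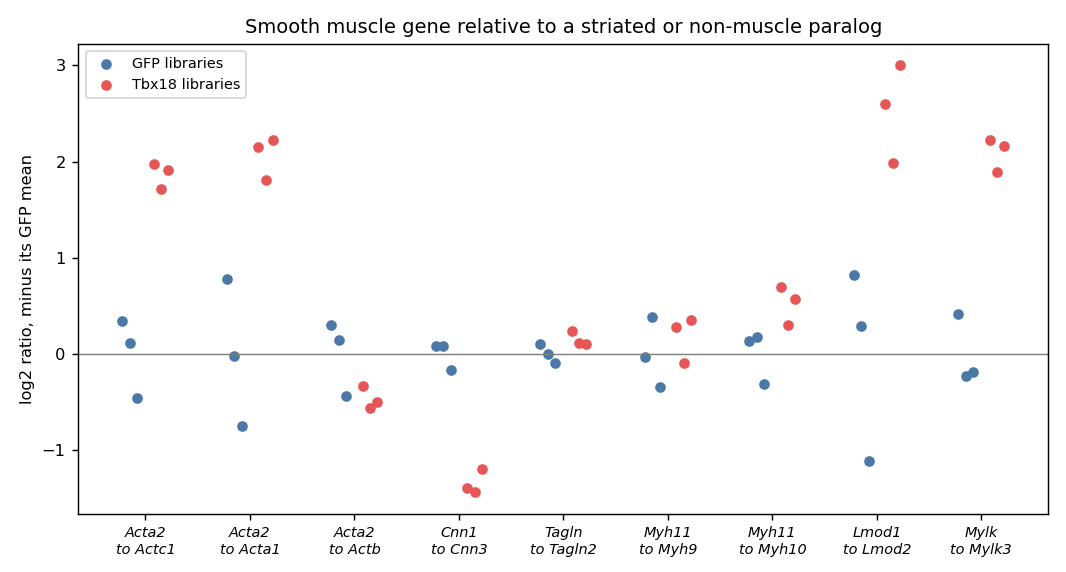
Log2 ratio of the normalized counts of a smooth muscle gene to a paralog in each library, minus the mean of the GFP libraries (y axis), for 9 pairs (x axis), with GFP libraries in blue and Tbx18 libraries in red. Pairs with a heart or skeletal paralog (Actc1, Acta1, Lmod2 and Mylk3) are higher in Tbx18 by 1.87 to 2.53 on average, Cnn1 to Cnn3 is lower by 1.34, and the mean differences of the other pairs lie between -0.47 and 0.52.

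Other proteins of the smooth muscle filament system went both ways. Of 17 listed, 16 were matched and 15 tested, with 5 higher, 5 lower and 5 not called and a median log2 fold change of 0.14. Over all genes tested 22.5% were higher and 23.5% lower. The rises were led by Itga8, an integrin subunit that anchors smooth muscle cells, from 546 ± 77.4 to 1859.8 ± 257 counts (SD, n = 3, 3.40-fold), Cald1, caldesmon, an actin-binding regulator, 1.93-fold, and the actin cross-linker Flna, 1.90-fold. Kcnmb1, the smooth muscle subunit of the calcium-activated potassium channel, was called at a log2 fold change of 0.81 and the scaffold protein Pdlim7 at 0.25, but neither with no intensity trend or without GFP replicate 2, GFP replicate 3 or any 1 Tbx18 library (adjusted p up to 0.149). The falls were led by Fhl1, a LIM-domain protein of muscle, 3.19-fold, Des, desmin, the muscle intermediate filament, 2.53-fold, and Tpm1, alpha-tropomyosin, 2.15-fold. Myl9 fell too, as did Synpo2, an actin-binding protein whose call was lost with equal totals (limma adjusted p = 0.0888). Myl9, the regulatory light chain of smooth muscle myosin and substrate of the kinase, went from 25123 ± 4233 to 17339 ± 258 counts (log2 fold change -0.52, limma adjusted p = 0.00580), and was not called with equal totals or after quantile normalization (adjusted p up to 0.197 over its alternatives). Tpm2, beta-tropomyosin, did not pass the test, with means of 16615 and 16007 counts and a log2 fold change of -0.04 that was 0.22 with equal totals. Myl6 was listed at 0 in every library, although it encodes a light chain that nearly all cells use, so a 0 in this table need not mean that a gene is silent. With equal totals 8 of these genes rose and 3 fell, where 4770 of all 11230 genes were higher and 1351 lower. Without GFP replicate 2, and without any 1 of the Tbx18 libraries, 3 rose.

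Genes that set how strongly the myosin light chain is phosphorylated were called about as often as genes in general. Of 20 tested, 6 were higher, 3 lower and 11 not called, against 46.0% of all genes called, with a median log2 fold change of 0.13. With equal totals 11 were higher and 2 lower, but that scaling shifted all genes upward. Under it 4770 of all 11230 genes were higher and 1351 lower, with a median of 0.27. The 3 that fell were Ppp1cb, Ppp1r12a and Dapk3. Ppp1cb, the catalytic subunit of myosin phosphatase, fell 1.71-fold from 15959 ± 1679 to 9312 ± 591 counts. Ppp1r12a, a subunit that targets it to myosin, fell 1.66-fold, while the other targeting subunits on the list were not called. Dapk3, a kinase of the light chain and of the phosphatase, fell 1.35-fold. The call on Dapk3 was lost with equal totals, after quantile normalization and without GFP replicate 2, GFP replicate 3 or Tbx18 replicate 3. The rises included both subunits of soluble guanylate cyclase, the nitric oxide receptor that relaxes smooth muscle, Gucy1a3 1.74-fold and Gucy1b3 1.54-fold. Arhgef1, an activator of RhoA, rose 1.49-fold, and the G protein subunit genes Gnaq and Gna11 1.54-fold and 1.39-fold. Gnaq was not called without Tbx18 replicate 2 or 3 (limma adjusted p up to 0.0880), nor Gna11 without GFP replicate 2 or Tbx18 replicate 1 or 3 (up to 0.0593). Rhoa itself had means of 7985 and 7786 counts, and its effector kinase genes Rock1 and Rock2 had log2 fold changes of -0.07 and -0.14; none of these 3 passed the test.

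SRF, the factor that myocardin works through, did not pass the test. Srf was at 2268, 1867 and 1939 counts in GFP and 2208, 2130.2 and 2349 in Tbx18, with overlapping groups (log2 fold change 0.14, SE 0.09, limma adjusted p = 0.241). It was called higher with equal totals, after quantile normalization and without GFP replicate 1, its alternatives spanning adjusted p-values of 0.00987 to 0.493. Of 18 tested SRF cofactors and regulators, 5 were higher, 3 lower and 10 not called, with a median log2 fold change of 0.09, and this share of calls is close to the 46.0% over all genes. Klf4, a zinc-finger factor known to repress smooth muscle genes, rose 1.82-fold from 801 ± 174 to 1460.4 ± 108 counts. The ternary complex factor genes Elk3 and Elk4, whose products share the myocardin docking surface of SRF, rose 1.42-fold and 1.25-fold, though Elk4 was not called without GFP replicate 2 or any 1 of the Tbx18 libraries (limma adjusted p up to 0.0889). Tcf21, a factor of the cardiac fibroblast lineage that is also on the fibroblast marker list, rose 3.85-fold, and Prrx1, a mesenchymal homeobox gene, 2.34-fold. Hopx, an SRF-binding repressor of heart, fell 2.45-fold, Fhl2, an SRF-binding LIM protein, 1.54-fold, and Gata4, a cardiac factor, 1.36-fold, which was not called with equal totals. Mef2c and both myocardin-related factors were not analysed here.

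The nearest patterns to that of Myocd were sought among 9220 other genes with a mean of at least 100 counts, by the root mean square distance of the centred log2 values over the 6 libraries. The 5 nearest were Ppara, a nuclear receptor of fatty acid oxidation, Lama5, a laminin chain, Arhgef37, Wnk2 and Zbtb25, at distances of 0.09 to 0.12 against a median of 0.66. Ppara was at 224, 164 and 183 counts in GFP and 65.4, 77.9 and 90.4 in Tbx18, and so had, like Myocd, its lowest GFP value in replicate 2 and its highest Tbx18 value in replicate 3. For Acta2 the 5 nearest were Rbak, Tril, Tmco4, Sulf1, an extracellular sulfatase, and Slc39a2, a zinc transporter gene, at distances of 0.09 to 0.11 against a median of 0.38. All 5 had their lowest value over the 6 libraries in GFP replicate 3, as Acta2 did. Such likenesses, that of Ppara to Myocd included, follow from the rule that picked the genes.

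Heart muscle markers were mostly lower, and fibroblast and epicardial markers mostly higher, beside these results. Pericyte and endothelial markers went both ways, while the macrophage markers that were called were higher. Heart muscle markers were present in both groups, their summed level being 558429 to 629479 counts in GFP and 338102 to 354056 in Tbx18, and of 7 tested 6 fell and 0 rose, with a median log2 fold change of -0.90. Among them Tnnt2, cardiac troponin T, fell 2.56-fold and Nkx2-5, a cardiac transcription factor, 1.45-fold, beside the 2.36-fold of Myocd. The 7 heart muscle markers ran from 4.27-fold lower (Pln) to 1.33-fold lower (Myh6, not called, limma adjusted p = 0.0583). Fibroblast markers summed to 241506 to 281437 counts in GFP and 517609 to 602254 in Tbx18, and 9 of 10 rose (Dcn not without Tbx18 replicate 3), with a median of 1.19, which exceeds the log2 fold change of every smooth muscle gene except Mylk and Lmod1. Col1a1, with means of 198103 counts in GFP and 371165 in Tbx18, made up most of that sum. The fibroblast marker not called, Col1a2, had means of only 12.6 and 18.0 counts, far below those of Col1a1. Whether the reads of Col1a2 were counted in full was not tested. Pericyte markers, which share an origin with smooth muscle, did not move as 1 block. Their sum was 15448 to 20381 counts in GFP and 19831 to 22232 in Tbx18, and of 8 tested 3 rose (Pdgfrb 2.80-fold, Notch3 1.78-fold and Rgs5 1.75-fold) and 2 fell (Abcc9 2.86-fold and Mcam 1.22-fold). The call on Mcam was lost under 8 of 16 alternatives, among them equal totals, upper-quartile and quantile scaling, and without GFP replicate 3 or any 1 Tbx18 library (limma adjusted p up to 0.863). The endothelial markers had 3 of 7 higher and 1 lower, the macrophage markers 2 of 5 higher and 0 lower, and the epicardial markers 3 of 4 higher and 0 lower, against 22.5% higher and 23.5% lower over all genes. The median log2 fold change of the epicardial markers was 1.20, beside 1.19 for the fibroblast markers. Their summed level was low, 280 to 307 counts in GFP and 577 to 646 in Tbx18 for the epicardial list. Of the endothelial calls, Tie1 was lost under 7 alternatives (without GFP replicate 2 or any 1 Tbx18 library among them), Cdh5 under 3 (one being without Tbx18 replicate 1, another without replicate 3) and Kdr, the one that was lower, with equal totals. Of the macrophage calls, Cd68 was lost under 6 alternatives (without GFP replicate 1 or 3 or Tbx18 replicate 2 or 3 among them) and Csf1r without Tbx18 replicate 3. None of the markers that were matched was at 0 in every library. The part of these cell types in the changes of the 9 genes was not tested.

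**Figure D4:**
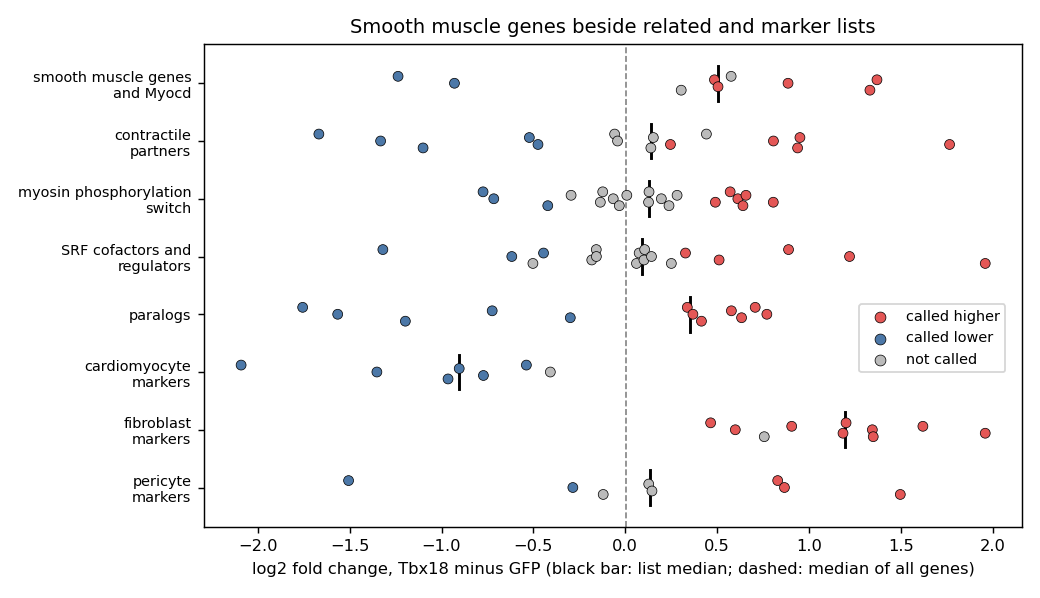
Log2 fold change of Tbx18 minus GFP (x axis) of each tested gene in 8 lists (y axis), coloured by its limma call, with the median of each list as a black bar and that of all genes as a dashed line. The smooth muscle genes span -1.24 to 1.37 around a median of 0.50, between the heart muscle markers at -0.90 and the fibroblast markers at 1.19.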

How the data were processed

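The deposited table holds signal values, gene read counts that the authors divided by a size factor per library (its name says DESeq2). The tools in the submitters' processing notes are STAR 2.4.0g1, bcl2fastq 2.17.1.14, DESeq2 1.10.1 and HTSeq, with no roles stated. No build, annotation or strand setting for the counting was found in the labels or the header. Whole reads were recovered for 100% of values (tolerance 0.01). The main test was limma 3.58.1 (R 4.3.3) with a mean-variance trend on log-transformed values, log2(normalized count + 1), restricted to a mean of 10 or more, which left 11230 genes. This scale understates changes of low genes. The test was tried on simulated counts. Named genes were the 9 members, Tbx18, up to 4 called genes of largest change from each of 4 related lists, a set list of partners and paralogs, and the nearest patterns; other genes named were chosen after their values were seen. The members and lists were chosen with earlier results of these data known. Among the alternatives were count tests on the recovered reads, by edgeR (version 4.0.16) and by DESeq2 (version 1.42.0), other scalings and filters, and leaving out each library. Precision is limited by 3 libraries a group. A member of the phosphorylation list is counted but not reported here by name.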

Additional observations from a re-analysis of the deposited data

How the results depend on the processing

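Of the 9 genes, 7 kept their direction and their side of the threshold under all 16 alternatives; the exceptions were Acta2 and Actg2, which were not called but were called under some alternatives. The number of the 9 that rose was 5, and ran from 5 to 7 over the alternatives, while 2 fell throughout. With a replicate block, 6 rose, Actg2 being called (limma adjusted p = 0.0234), the contractile partner Pdlim7 was not called, and the count of all genes called was 2527 higher and 2628 lower; same-numbered libraries share only a number (correlations of their deviations from the group means -0.00474, 0.151 and 0.0165). The replicate block also moved other counts by less than 1.5 times. With equal totals 4770 genes were higher and 1351 lower in place of 2525 and 2639, the contractile partners had 8 higher and 3 lower, and the phosphorylation genes 11 higher; after quantile normalization the phosphorylation genes had 10 higher. With no intensity trend 3 contractile partners were higher, and with 1 library left out their number ran from 3 to 6. Tpm2, which was not called, had a log2 fold change of 0.0576 with upper-quartile scaling, 0.222 with equal totals, 0.238 after quantile normalization and -0.139 to 0.0837 with 1 library left out (above 0 without GFP replicate 2), in place of -0.04. The causes were not tested beyond what these alternatives change. By edgeR and by DESeq2 on recovered reads 5 of the 9 genes rose and 2 fell.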
